A study of Mus musculus with 48 samples.

Results

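The subject is the CD4 T cells of Yap-cKO mice, compared between tumor and lymph node. RNA sequencing libraries were chosen by their labels: 4 libraries of Yap-cKO CD4 tumor-infiltrating lymphocytes (TILs) and 4 libraries of Yap-cKO CD4 T cells from tumor-draining lymph nodes (TDLNs), 8 of the 48 libraries in the series. Yap-cKO mice carried Yap-loxP/loxP, LSL-EYFP and CD4-Cre (CD4Cre Yap flox in the labels), so that Cre driven by the Cd4 promoter deleted Yap and switched on EYFP from the CD4+CD8+ thymocyte stage onward, in CD8 as well as CD4 T cells. All mice were on the C57BL/6J background and bore subcutaneous B16F10 melanoma, a transplanted mouse melanoma line, and the draining nodes were inguinal. Live CD45+CD3+ cells were sorted on CD4 or CD8, and SMART-Seq v4 cDNA of each sort was sequenced. Per the study's methods, tumors were digested with collagenase and DNase before the sort, and no digestion is described for the nodes. Effects of this step cannot be told apart from the difference between tissues. The comparison asks which genes differed between CD4 T cells in the tumor and in the node that drains it when the T cells lacked Yap. For comparison, 8 CD4 libraries of WT littermates (4 TIL, 4 TDLN) and 8 CD8 libraries of Yap-cKO mice (4 TIL, 4 TDLN) were used. The labels number the replicates but name no mouse, so p-values measure the spread between these libraries.

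CD4 T cells leave the thymus as naive cells that circulate through lymph nodes, which they enter with the chemokine receptor Ccr7. After activation they become lineages marked by a master transcription factor: Tbx21 in type 1 cells, Gata3 in type 2 cells, Bcl6 in follicular helper cells and Foxp3 in regulatory T cells (Tregs), which restrain other T cells and are abundant in many tumors. Yap is a transcriptional coactivator that the Hippo kinases hold in the cytoplasm and that acts in the nucleus through TEAD factors.

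Foxp3 (ENSMUSG00000039521.13, chromosome X:7573644-7595245, + strand) and Gata3 (ENSMUSG00000015619.10, chromosome 2:9857078-9890034, - strand) stand for the lineages on which the results turn. The 250 bases upstream of their annotated starts are shown because both genes were higher in TILs. The sequences are from RefSeq on GRCm38.p6, the files' build (mm10), printed 5′ to 3′ on the gene's strand, with capitals for any of 7 short motifs found on either strand: the words of NFAT (TGGAAA), of GATA factors (AGATAA), of T-box factors (AGGTGTGA), of AP-1 factors (TGANTCA), of TCF and LEF (CTTTGAT), of TEAD factors (GGAATG) and of the TATA box (TATAAA). Positions count back from the start, with -1 as the last base.
Foxp3, first start, chrX:7579426-7579675, + strand: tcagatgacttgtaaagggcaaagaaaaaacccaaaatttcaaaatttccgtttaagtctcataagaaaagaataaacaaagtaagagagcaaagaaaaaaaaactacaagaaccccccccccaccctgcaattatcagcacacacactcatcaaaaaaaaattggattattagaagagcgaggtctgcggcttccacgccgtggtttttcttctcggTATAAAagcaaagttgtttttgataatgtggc
Foxp3, second start, chrX:7580233-7580482, + strand: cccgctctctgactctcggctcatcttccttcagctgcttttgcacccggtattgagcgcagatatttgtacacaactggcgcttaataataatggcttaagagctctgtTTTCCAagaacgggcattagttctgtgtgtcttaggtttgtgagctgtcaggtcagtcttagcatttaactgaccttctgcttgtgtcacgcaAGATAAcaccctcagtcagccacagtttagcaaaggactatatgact
Gata3, chr2:9878601-9878850, - strand: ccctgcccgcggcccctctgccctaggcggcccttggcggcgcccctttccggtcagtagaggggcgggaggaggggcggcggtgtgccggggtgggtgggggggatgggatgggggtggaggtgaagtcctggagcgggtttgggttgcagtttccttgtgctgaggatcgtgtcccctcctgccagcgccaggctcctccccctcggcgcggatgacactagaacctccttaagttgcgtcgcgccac
The first Foxp3 window holds a TATA box from -32, and the second holds an NFAT word on the opposite strand from -140 and a GATA word from -47. The Gata3 window holds none of the 7 words. These motifs were chosen after the values were seen. Of all 32851 promoter windows, 18.6% held the NFAT word, 9.99% the GATA word, 1.12% the T-box word, 6.75% the AP-1 word, 3.21% the TCF/LEF word, 12.6% the TEAD word and 12.4% the TATA word. Among the 1226 windows of genes called higher in TILs, the shares were 20.9%, 8.16%, 1.39%, 9.05%, 2.94%, 16.2% and 9.22%, beside 18.1%, 7.61%, 0.994%, 5.48%, 2.90%, 12.3% and 8.36% of the 10059 windows of tested genes, in the same order. A match is a description of letters and not evidence of a bound site.

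Depth was similar in all 8 libraries, from 15604679 to 19205795 counts on genes, and no pair of libraries agreed within counting noise. TIL replicate 3 stood apart from the other TILs. Its correlation with them was 0.840 to 0.870, where the other 3 reached 0.969 to 0.975 with their nearest neighbour. It placed 28.8% of its counts on genes under 1 kb (17.1% to 24.3% in the other TILs) and 13.6% on genes over 3 kb (16.4% to 22.2%), and of 13565 genes it was the lowest TIL for 5818 and the highest for 5236. Its deviations resembled those of TDLN replicate 1 (correlation across genes 0.706). Results that depend on TIL replicate 3 are therefore given with and without it.

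Markers of other cells were present in the TIL libraries at levels that differed between replicates. Summed over 14 melanoma genes, TIL replicates 1 to 4 held 207, 1116, 2490 and 1159 CPM (counts divided by the library total and put on one scale), against 16.6 to 23.6 CPM in TDLNs. The 15 macrophage and monocyte genes summed to 293, 343, 1122 and 262 CPM in TILs and 58.6 to 74.3 CPM in TDLNs. Replicate 3 was the highest TIL in both sums, and the WT TILs held more melanoma RNA, 6983 to 20884 CPM. The 5 erythroid genes summed to 35.4 to 210.1 CPM in TILs and at most 0.590 CPM in TDLNs, the 9 neutrophil genes to 30.5 to 52.0 against 4.22 to 6.05 CPM, the 7 NK cell genes to 16.7 to 31.3 against 1.92 to 4.29 CPM, the 10 fibroblast genes to 19.3 to 83.8 against 2.42 to 4.69 CPM and the 5 pericyte genes to 2.30 to 26.4 against 0.407 to 0.561 CPM. Mmp9 was most of the neutrophil sum in TILs, at 16.9 to 39.9 CPM, while S100a8 and S100a9 were at most 2.28 and 1.79 CPM there. The 13 dendritic cell genes, most of whose sum was Cd74 and other MHC class II genes, gave 927 to 1256 against 165 to 588 CPM. B cell markers went the other way, at 18.1 to 26.6 CPM over 12 genes in TILs and 31.4 to 96.9 CPM in TDLNs, as did the 2 CD8 genes at 15.5 to 27.5 against 36.1 to 57.3 CPM. Each of these 10 sums had an adjusted p of 0.0343 (exact permutation test, two-sided, over 12 lists, smallest raw p possible 0.0286), while the 10 endothelial genes (adjusted p = 0.0935, exact permutation test) and the 5 keratinocyte genes (adjusted p = 0.171, exact permutation test, with Krt5, Krt14 and Krt15 listed at 0) did not pass. Pecam1 was most of the endothelial sum in TDLNs, at 169 to 217 CPM, and was 75.1 to 128 CPM in TILs. By single genes, 12 of 13 melanoma, 14 of 15 macrophage, 7 of 12 dendritic cell, 4 of 4 erythroid, 4 of 5 fibroblast, 4 of 6 endothelial, 3 of 3 NK cell, 2 of 4 neutrophil and 1 of 1 pericyte genes tested were called higher in TILs, and 6 of 10 B cell genes and 1 of 2 CD8 genes lower, where 12.4% of all genes tested were called higher and 6.07% lower. A gene was tested only with 10 counts in at least 4 libraries, which 5 of the 10 fibroblast and 1 of the 5 pericyte genes had. Markers near 0 in TDLNs could pass only through the TILs, which nearly fixed their call in advance. For such markers these counts are a description and no test.

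**Figure D1:**
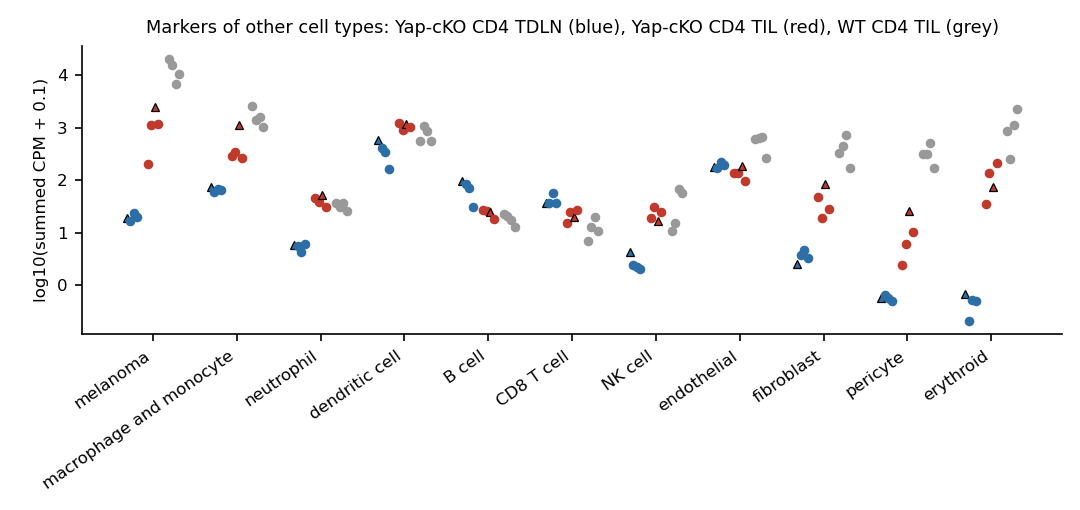
Summed CPM of the marker genes of 11 other cell types (horizontal axis), as log10(summed CPM + 0.1), 1 point per library, in blue for Yap-cKO CD4 TDLNs, red for Yap-cKO CD4 TILs and grey for WT CD4 TILs, with triangles for TDLN replicate 1 and TIL replicate 3. Melanoma sums were 207 to 2490 CPM in TILs and at most 23.6 CPM in TDLNs, and B cell and CD8 sums were lower in TILs than in TDLNs.

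The sorted cells carried the transcripts of CD4 T cells in both tissues. Cd4, the coreceptor used for the sort, was 929, 806, 583 and 749 CPM in TIL replicates 1 to 4 and 1189, 1088, 1101 and 992 CPM in TDLN replicates 1 to 4, on the TMM-scaled CPM used from here on. The 4 TIL values lay below the 4 TDLN values, and the difference did not pass the test (log2 fold change -0.51 ± 0.27 (SE), adjusted p = 0.209). Cd3e, a signaling chain of the T cell receptor complex, was 803, 877, 1542 and 655 CPM in TILs and 1484, 1003, 973 and 761 CPM in TDLNs, which overlapped. None of the 17 genes of the T cell receptor and coreceptor list was called, and their median log2 fold change was -0.13, beside -0.04 for all genes tested. Cd8a did not exceed 6.63 CPM in any of the 8 libraries.

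Yap1 (ENSMUSG00000053110.13, chromosome 9:7931999-8004596, - strand), the deleted gene, was low in all 8 libraries, at 1.77, 3.11, 5.68 and 2.68 CPM in TILs and 1.56, 1.72, 2.57 and 2.37 CPM in TDLNs. The groups overlapped (log2 fold change 0.68 ± 0.45 (SE), adjusted p = 0.315). The 4 WT CD4 TDLN libraries held 1.77 ± 0.507 CPM (SD, n = 4), no more than the 2.04 ± 0.547 CPM of the Yap-cKO TDLNs on the same scale, so the total Yap1 level does not check the genotype label in the node. In all 4 TDLNs and in TIL replicate 1, all 24.2 to 51.3 Yap1 counts were assigned to the retained-intron transcript Yap1-208. TIL replicates 2, 3 and 4 held 17.4, 66.1 and 17.9 counts on other Yap1 transcripts, and their melanoma sums were also the higher ones. Whether the melanoma RNA carried these counts was not tested. The Yap1 transcripts were examined after the values were seen, and no test was made.

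**Figure D2:**
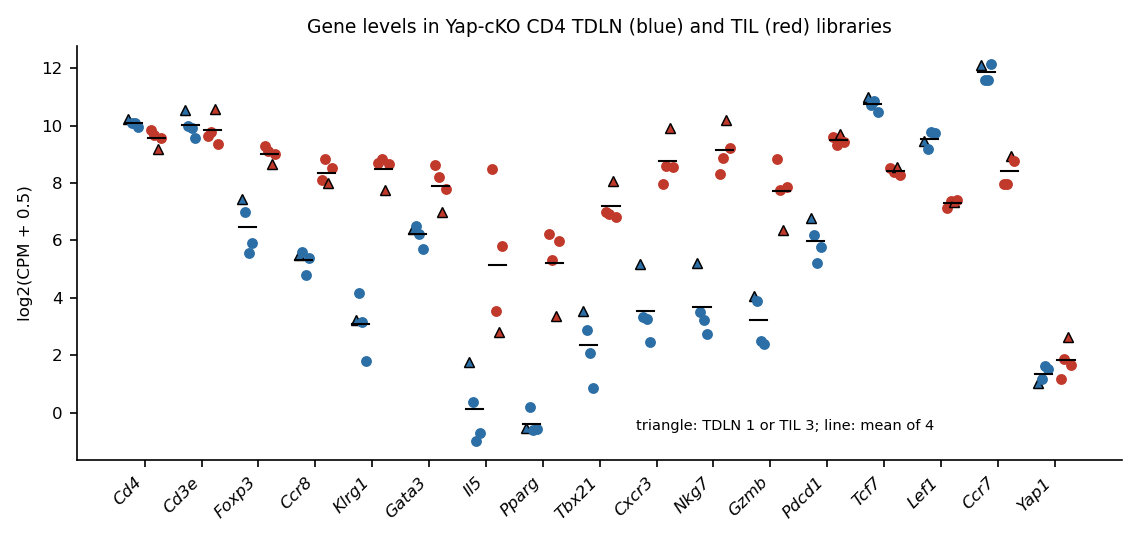
Levels of 17 genes (horizontal axis) as log2(CPM + 0.5), 1 point per library, in blue for Yap-cKO CD4 TDLNs and red for Yap-cKO CD4 TILs, with triangles for TDLN replicate 1 and TIL replicate 3 and a line at the mean of 4 libraries. Foxp3, Ccr8, Klrg1, Gata3, Il5, Pparg, Tbx21, Cxcr3, Nkg7, Gzmb and Pdcd1 were higher in all 4 TILs than in all 4 TDLNs, Tcf7, Lef1 and Ccr7 were lower in all 4, and the Cd3e and Yap1 points overlapped.

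Across 13565 genes, 1684 were higher and 823 lower in TILs than in TDLNs at an adjusted p under 0.05 with an absolute log2 fold change above 1 (edgeR's quasi-likelihood test, Benjamini-Hochberg adjustment), which is 18.5% of genes in either direction, 12.4% higher and 6.07% lower. Without TIL replicate 3 the counts were 1875 and 903 (20.5% in all, 13.8% higher and 6.66% lower), and 1596 and 699 genes were called the same way in both. In 13.9% of genes all 4 TIL values lay above all 4 TDLN values, and in 12.3% below. Scaling each library on T cell receptor genes moved the median log2 fold change of all genes from -0.04 to 0.20 and turned the direction of no called gene named here. Among named genes that were not called, Cd3e, Prf1, Nr4a1 and Cd69 changed sign under it. It left 2298 genes higher and 422 lower, 84.5% of calls higher where the main fit had 67.2%. The count of each gene list that follows is read against these shares. Genes named beyond the fixed rule were picked from the lists after their values were seen. In sorted bulk samples, fewer cells of a type and less RNA per cell cannot be told apart.

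**Figure D3:**
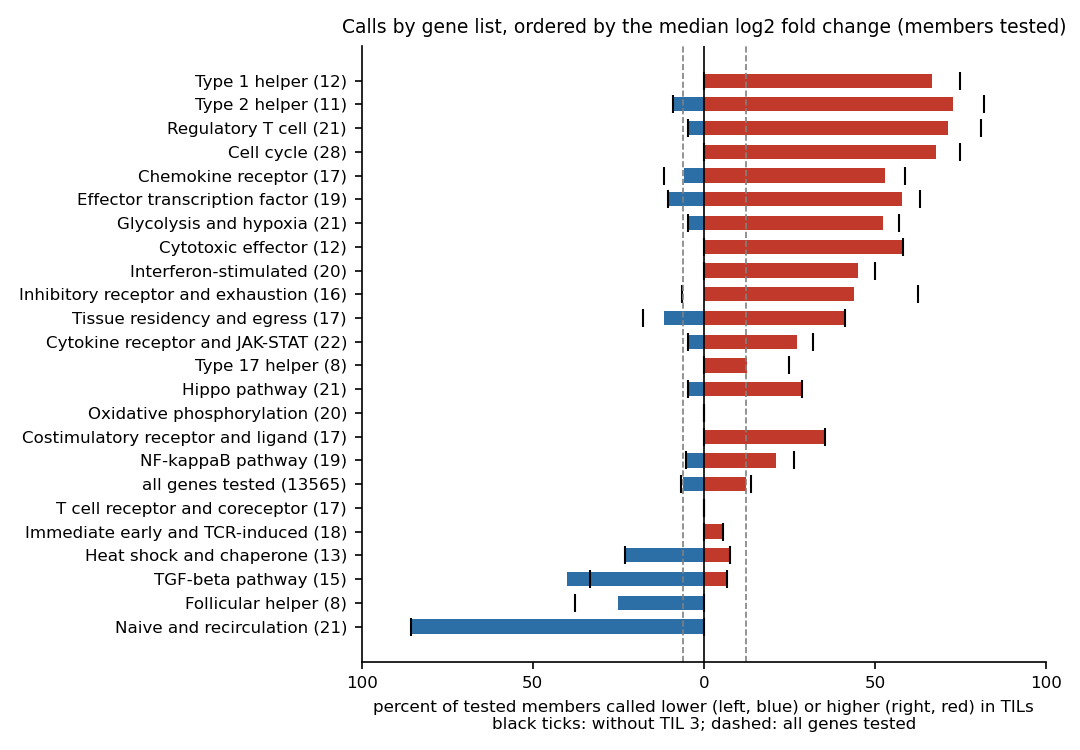
Percent of tested members called higher (red, to the right) and lower (blue, to the left) in Yap-cKO CD4 TILs for each of 23 gene lists and for all genes on the vertical axis, ordered by median log2 fold change with the number tested in parentheses. Black ticks leave out TIL replicate 3 and dashed lines mark 12.4% higher and 6.07% lower for all genes. The naive and recirculation list had 18 lower and 0 higher of 21, and the cell cycle list 19 higher and 0 lower of 28.

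Genes of naive and recirculating T cells were lower in TILs. Of 21 such genes, 18 fell, none rose, and the median log2 fold change was -2.30, with the same counts without TIL replicate 3. The same number, 18, had all 4 TIL values below all 4 TDLN values. Ccr7, which guides T cells into lymph nodes, was 249.9, 250.3, 495 and 431 CPM in TILs and 4405, 3093, 3082 and 4489 CPM in TDLNs. The lowest TDLN was several times the highest TIL (log2 fold change -3.40 ± 0.37 (SE), adjusted p = 0.000372). Tcf7 and Lef1, the transcription factors of naive and memory-like T cells, changed by nearly the same amount. Tcf7 was 365, 332, 371 and 310.1 CPM against 2036, 1675, 1872 and 1416 CPM (-2.34 ± 0.28 (SE) on the log2 scale, adjusted p = 0.00044). Lef1 was 141, 166, 161 and 169.7 CPM against 709, 582, 866 and 847 CPM (-2.24 ± 0.27 (SE), adjusted p = 0.00048), and its 4 TIL values lay close together. S1pr1, the receptor for leaving tissue, fell by 1.99 on the log2 scale, and Satb1, Il6st, Dapl1, Igfbp4 and Actn1 fell by 2.94, 3.03, 3.19, 3.47 and 3.39. Il7r (log2 fold change -0.16 ± 0.62, adjusted p = 0.876), Cd27 (log2 fold change -0.68 ± 0.27, adjusted p = 0.1) and Klf2 (log2 fold change -0.87 ± 0.38, adjusted p = 0.134) were not called, and Klf2 was called lower without TIL replicate 3 (log2 fold change -1.25, adjusted p = 0.00628). Ets1 was called lower with all libraries (log2 fold change -1.22 ± 0.38, adjusted p = 0.0417) and not without TIL replicate 3 (-0.93).

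The window upstream of the first of 4 annotated Lef1 starts is shown as the promoter of a gene that fell evenly, and it holds none of the 7 motif words.
Lef1, chr3:131110047-131110296, + strand: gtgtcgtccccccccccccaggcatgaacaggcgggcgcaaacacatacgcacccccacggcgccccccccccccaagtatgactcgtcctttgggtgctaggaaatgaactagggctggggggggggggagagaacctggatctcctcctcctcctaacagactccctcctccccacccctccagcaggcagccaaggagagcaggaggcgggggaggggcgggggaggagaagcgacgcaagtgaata

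Genes of regulatory T cells were higher in TILs. Of 21, 15 rose and 1 fell, with a median log2 fold change of 2.38, and 17 rose without TIL replicate 3. Foxp3 was 624, 554, 402 and 509 CPM in TIL replicates 1 to 4 and 174, 125, 46.1 and 60.05 CPM in TDLN replicates 1 to 4, means of 522 ± 93.3 and 101 ± 59.3 CPM (SD, n = 4). Every TIL lay above every TDLN, 5.16-fold on average (log2 fold change 2.37 ± 0.43 (SE), adjusted p = 0.00358). Il2ra, the high-affinity IL-2 receptor chain that Tregs and activated T cells carry, was 622, 213, 43.5 and 220.0 CPM in TILs and 91.6, 84.5, 30.9 and 55.5 CPM in TDLNs. TIL replicate 3 overlapped the TDLNs, and the log2 fold change was 2.07 ± 0.65 (SE, adjusted p = 0.0466) with it and 2.50 (adjusted p = 0.00198) without it. Ctla4, an inhibitory receptor of Tregs, was 1109, 807, 245 and 673 CPM against 394, 490.2, 261 and 246 CPM, not called with all 4 TILs (log2 fold change 1.03 ± 0.44, adjusted p = 0.126) and called higher without replicate 3 (log2 fold change 1.38, adjusted p = 0.00651).

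Klrg1, Ccr8 and Entpd1, which are known from effector Tregs of tissues and tumors, were among the Treg genes with the smallest p-values. Klrg1 was 411, 452, 214 and 403 CPM in TILs and 8.75, 17.6, 8.31 and 2.94 CPM in TDLNs (log2 fold change 5.30 ± 0.56 (SE), adjusted p = 0.000359). Ccr8, a chemokine receptor of tumor Tregs, was 273, 451, 254 and 365 CPM against 44.5, 47.5, 27.4 and 41.2 CPM (3.06 ± 0.32 (SE), adjusted p = 0.000359). In both genes the groups lay far apart. Entpd1 (CD39), which breaks down extracellular ATP, was 70.7, 69.98, 29.4 and 57.9 CPM against 4.73, 6.61, 3.32 and 2.48 CPM (log2 fold change 3.73 ± 0.42 (SE)). Il10, the anti-inflammatory cytokine, was 65.1, 31.98, 26.99 and 31.9 CPM against 6.35, 2.82, 3.42 and 1.62 CPM (log2 fold change 3.46 ± 0.48 (SE), adjusted p = 0.000901). TIL replicate 1 was the highest for both Entpd1 and Il10. Ikzf2 (Helios), Ebi3 (a subunit of IL-35) and Areg, a tissue repair factor, rose by 3.04, 3.94 and 3.11 on the log2 scale. Il1rl1, the IL-33 receptor, was 347, 92.4, 13.7 and 70.4 CPM against 8.43, 19.5, 6.59 and 13.3 CPM, a difference called with all libraries (log2 fold change 3.45 ± 0.80, adjusted p = 0.0121) although TIL replicate 3 overlapped the TDLNs. Gpr83, a receptor of resting Tregs, was the member that fell, at 3.9, 2.73, 0.794 and 3.71 CPM in TILs and 41.3, 37.6, 16.8 and 16.96 CPM in TDLNs (log2 fold change -3.34 ± 0.54, adjusted p = 0.00187).

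Type 1 helper and cytotoxic genes also rose. Of 12 type 1 genes, 8 rose and none fell, with a median log2 fold change of 2.71. Tbx21 (T-bet), the type 1 master factor, was 126, 119, 269.7 and 113 CPM in TILs and 11.1, 6.78, 3.73 and 1.33 CPM in TDLNs (log2 fold change 4.78 ± 0.63 (SE), adjusted p = 0.000692). Ifng, the main type 1 cytokine, was 60.9, 32.5, 15.7 and 28.4 CPM against 3.31, 2.702, 2.16 and 0.692 CPM (3.95 ± 0.56 (SE), adjusted p = 0.000973). Each of these 2 genes was separated between tissues, but TIL replicate 3 was the highest TIL for Tbx21 and the lowest for Ifng. Cxcr3, the receptor that guides type 1 cells to inflamed tissue, was 249.9, 386, 953 and 378 CPM against 35.4, 9.601, 9.01 and 5.02 CPM (5.06 ± 0.71 (SE), adjusted p = 0.000945). Ccl5, a chemokine of effector T cells, was 180.2, 244, 658 and 269 CPM against 7.003, 5.12, 3.78 and 1.56 CPM (6.27 ± 0.62 (SE), adjusted p = 0.00028). Il18rap and Il12rb2, receptor chains for IL-18 and IL-12, rose by 3.53 and 2.76 on the log2 scale. Eomes (log2 fold change 0.40 ± 0.48, adjusted p = 0.596) and Tnf (log2 fold change 0.50 ± 0.43, adjusted p = 0.445) were not called.

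Of 12 cytotoxic genes tested, from a list of 15, 7 rose and none fell (median 1.34). Gzmb, a granule protease, was 457, 216, 81.8 and 233 CPM in TILs and 16.2, 14.2, 5.14 and 4.79 CPM in TDLNs (log2 fold change 4.61 ± 0.63 (SE), adjusted p = 0.000796). Nkg7, a granule protein of cytotoxic lymphocytes, was 314, 467, 1175 and 598 CPM against 36.2, 10.8, 8.91 and 6.17 CPM (5.36 ± 0.69 (SE), adjusted p = 0.000594). Every TIL lay above every TDLN in both genes, with TIL replicate 3 the lowest for Gzmb and the highest for Nkg7. Gzma and Gzmk rose by 4.64 and 6.82 on the log2 scale from under 1.1 CPM in TDLNs. Prf1, the pore-forming protein that granzymes need to enter a target cell, was 21.5, 21.2, 25.3 and 33.9 CPM against 34.6, 28.5, 32.98 and 19.8 CPM and did not pass the test (log2 fold change -0.19 ± 0.29, adjusted p = 0.692). NK cells express many of these genes, and the NK cell marker sum was also higher in TILs, at 16.7 to 31.3 CPM against 1.92 to 4.29 CPM, a sum that includes Gzma. The NK receptor genes Klrb1c, 7.86, 6.51, 8.18 and 9.46 CPM against 2.85, 0.805, 1.26 and 0.692 CPM, and Klre1 rose by 2.51 and 1.59 on the log2 scale. Ncr1 was at most 0.925 CPM in the 8 libraries, without TMM scaling. CD8 T cells express these genes too, and Cd8a was lower in TILs. The part of NK and CD8 RNA in the cytotoxic genes was not tested.

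The Cxcr3 and Nkg7 windows are shown as those of type 1 and cytotoxic genes whose mean was 33.4 (Cxcr3) and 41.2 (Nkg7) times higher in TILs. Nkg7 holds the T-box word from -14, which 1.12% of all windows hold, and Cxcr3 holds none of the 7 words.
Cxcr3, chrX:101734148-101734397, - strand: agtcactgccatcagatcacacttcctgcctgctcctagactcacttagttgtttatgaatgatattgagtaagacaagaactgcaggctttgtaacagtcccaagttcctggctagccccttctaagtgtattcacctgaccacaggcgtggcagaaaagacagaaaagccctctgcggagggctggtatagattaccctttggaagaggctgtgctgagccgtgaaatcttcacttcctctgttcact
Nkg7, chr7:43436888-43437137, + strand: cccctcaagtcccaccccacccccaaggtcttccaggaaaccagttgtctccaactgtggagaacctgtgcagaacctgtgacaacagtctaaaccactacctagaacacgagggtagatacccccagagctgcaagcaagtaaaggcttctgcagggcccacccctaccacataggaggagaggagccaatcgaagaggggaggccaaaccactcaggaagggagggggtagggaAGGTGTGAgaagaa

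Type 2 genes rose as well. Of 11 tested from a list of 12, 8 rose and 1 fell, with a median log2 fold change of 2.43. Gata3 was 395, 294, 126 and 219.6 CPM in TIL replicates 1 to 4 and 84.4, 90.7, 73.8 and 51.1 CPM in TDLN replicates 1 to 4, means of 259 ± 114 and 74.98 ± 17.4 CPM (SD, n = 4). The groups did not overlap, at 3.45-fold on average (log2 fold change 1.79 ± 0.38 (SE), adjusted p = 0.00737), and Gata3 did not pass a test against a log2 fold change of 1. Pparg, a nuclear receptor of type 2 cells and of tissue Tregs, was 74.2, 39.7, 9.89 and 61.9 CPM against 0.195, 0.632, 0.151 and 0.173 CPM (7.30 ± 0.76 (SE), adjusted p = 0.000359). The type 2 cytokines were uneven between TILs. Il5, the eosinophil growth factor, was 354, 11.01, 6.47 and 55.5 CPM in TILs and 2.92, 0.805, 0 and 0.115 CPM in TDLNs, so that TIL replicate 1 held most of it (log2 fold change 6.82 ± 1.57 (SE), adjusted p = 0.0114). Il13 was 17.5, 0.612, 4.09 and 3.59 CPM in TILs, with at most 3 counts in any TDLN, at least 37.4-fold higher against a floor of 3 counts per library (adjusted p = 0.00489). Il4, the cytokine that starts type 2 differentiation, was 6.46, 1.89, 5.98 and 8.32 CPM against 1.56, 1.49, 0.201 and 0.115 CPM (2.75 ± 0.78 (SE), adjusted p = 0.0304), close to the threshold. Il4ra, the receptor for IL-4 and IL-13, was the member that fell, at 465, 161, 229 and 162 CPM against 1085, 844, 738 and 1223 CPM (-1.94 ± 0.40 (SE), adjusted p = 0.00668).

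Il5 and Il13 lie on chromosome 11 in the type 2 cytokine locus, and their windows are shown as those of type 2 cytokines that rose. Il5 holds a TCF/LEF word on the opposite strand from -242 and an NFAT word from -114. Il13 holds NFAT words from -224 and -202 and on the opposite strand from -131, a GATA word from -81 and 2 overlapping TATA words from -31 (opposite strand) and -29.
Il5, chr11:53720544-53720793, + strand: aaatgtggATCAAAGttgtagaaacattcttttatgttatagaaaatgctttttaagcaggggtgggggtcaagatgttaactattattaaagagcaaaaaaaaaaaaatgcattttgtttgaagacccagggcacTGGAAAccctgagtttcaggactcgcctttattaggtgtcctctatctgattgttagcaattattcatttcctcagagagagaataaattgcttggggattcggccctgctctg
Il13, chr11:53634703-53634952, - strand: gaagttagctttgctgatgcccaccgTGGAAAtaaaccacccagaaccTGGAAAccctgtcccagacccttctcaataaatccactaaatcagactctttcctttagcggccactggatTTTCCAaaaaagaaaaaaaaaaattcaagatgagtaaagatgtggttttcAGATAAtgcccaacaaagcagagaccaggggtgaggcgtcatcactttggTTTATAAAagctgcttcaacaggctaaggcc

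Type 17 and follicular helper genes did not rise as groups. Of 8 type 17 genes tested, 1 rose, with a median log2 fold change of 0.43. The gene that rose was Rora, a nuclear receptor also found in type 2 cells and tissue Tregs, at 512, 236, 26.2 and 269 CPM in TILs and 23.7, 50.02, 24.01 and 58.9 CPM in TDLNs (log2 fold change 2.74 ± 0.70, adjusted p = 0.019), with TIL replicate 3 inside the TDLN range. Il17a was 8.84, 1.78, 1.77 and 2.57 CPM against 1.62, 17.4, 1.26 and 1.62 CPM (log2 fold change -0.55 ± 0.89, adjusted p = 0.7), and TDLN replicate 2 alone stood high for both Il17a and Il17f. Of 8 follicular helper genes tested, 2 fell and none rose, with a median of -1.03. Bcl6 was 28.9, 16.1, 6.11 and 8.096 CPM in TILs and 73.7, 49.5, 42.7 and 106 CPM in TDLNs (log2 fold change -2.20 ± 0.51 (SE), adjusted p = 0.0115). Pou2af1, which B cells also express, fell by 2.96 on the log2 scale, beside the fall of the B cell sum. Cxcr5, the receptor that guides cells into B cell follicles, was 6.03, 5.12, 10.7 and 4.16 CPM against 19.1, 20.6, 7.199 and 5.71 CPM (log2 fold change -1.01 ± 0.49, adjusted p = 0.179).

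The lineage factors Foxp3, Gata3, Tbx21 and Bcl6 can be set side by side per transcript length, in the deposited TPM, counts scaled by transcript length and library total, summed per gene. The median level in TILs was 206 TPM for Foxp3, 140 TPM for Gata3, 78.2 TPM for Tbx21 and 5.11 TPM for Bcl6. In TDLNs the medians were 35.4 TPM for Foxp3, 35.5 TPM for Gata3, 21.3 TPM for Bcl6 and 3.13 TPM for Tbx21. Foxp3 and Gata3 overlapped in both tissues (109 to 249.1 against 44.5 to 205 TPM in TILs), and Tbx21 at 61.0 to 114 TPM overlapped them in TILs. Bcl6 at 1.74 to 12.3 TPM lay below the other 3 in TILs. Bcl6 stood above Tbx21 in all 4 TDLNs and below it in all 4 TILs.

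Inhibitory receptors rose in part. Of 16, 7 rose and none fell, with a median of 1.07, and without TIL replicate 3 10 rose and 1 fell. Pdcd1 (PD-1) was 769, 639, 837 and 681 CPM in TILs and 108, 72.04, 36.5 and 53.9 CPM in TDLNs, and the narrow TIL range lay well above the TDLNs (log2 fold change 3.43 ± 0.38 (SE), adjusted p = 0.000373). Havcr2 (TIM-3), which macrophages express too, was 40.03, 64.97, 5.62 and 57.2 CPM against 1.56, 3.91, 2.72 and 1.15 CPM (4.16 ± 0.70 (SE), adjusted p = 0.00235). The part of macrophage RNA in Havcr2 was not tested. Lag3, which binds MHC class II, was 11.9, 12.6, 40.2 and 9.75 CPM against 4.08, 2.13, 1.61 and 1.33 CPM (log2 fold change 3.03 ± 0.57, adjusted p = 0.00423). Tigit was 136, 111, 85.96 and 106 CPM against 26.97, 14.2, 9.46 and 14.9 CPM (2.74 ± 0.36 (SE), adjusted p = 0.000715). Tox, a factor tied to exhaustion in CD8 T cells, was 108, 143, 72.5 and 97.5 CPM against 127, 111, 111 and 111 CPM and was not called (log2 fold change -0.12 ± 0.28, adjusted p = 0.786). Btla was not called with all libraries (log2 fold change -1.67 ± 0.57, adjusted p = 0.0609) and was called lower without TIL replicate 3 (log2 fold change -1.27, adjusted p = 0.0128).

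Costimulatory receptors and ligands rose in part. Of 17 genes, 6 rose and none fell, with a median of 0.31. In the TNF receptor family, Tnfrsf9 (4-1BB) was 1440.3, 977, 1161 and 1363 CPM in TILs and 219, 107, 70.8 and 87.6 CPM in TDLNs (log2 fold change 3.35 ± 0.41 (SE), adjusted p = 0.00048). Tnfrsf4 (OX40) was 879, 839, 1536 and 1109 CPM against 280.0, 181, 69.2 and 137 CPM (2.71 ± 0.44 (SE), adjusted p = 0.0019), and Tnfrsf18 (GITR), which is also on the Treg list, was 961, 977, 1546 and 1084 CPM against 258, 179, 129 and 202 CPM (2.57 ± 0.33 (SE), adjusted p = 0.000573). All 3 were separated between tissues. Other members of that family, Tnfrsf1b, Tnfrsf25 and Cd27, were not called, at log2 fold changes of 0.64, 0.27 and -0.68. The immunoglobulin family was divided too. Cd80, a ligand of CD28, was 18.2, 11.7, 5.62 and 17.4 CPM against 1.04, 2.01, 3.42 and 1.44 CPM (log2 fold change 2.73 ± 0.51, adjusted p = 0.00395), and Slamf1, a receptor that binds itself on other cells, was 138, 138, 38.5 and 115 CPM against 31.4, 51.3, 43.2 and 42.2 CPM (log2 fold change 1.35 ± 0.39, adjusted p = 0.034), with TIL replicate 3 inside the TDLN range. Both rose, as did the TNF family ligand Tnfsf14, by 2.69 on the log2 scale. Cd28, 515, 414, 90.8 and 362 CPM against 323, 546, 591 and 749.8 CPM, and Icos, 1215, 559.6, 181 and 675 CPM against 365, 595, 423 and 738 CPM, overlapped and were not called (log2 fold changes -0.68 and 0.31, adjusted p = 0.346 and 0.69).

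Chemokine receptors of effector and tissue T cells were higher. Of 17, 9 rose and 1 fell, Ccr7, with a median of 1.60. Cxcr6 was 402, 496, 113 and 598 CPM in TILs and 24.6, 90.9, 14.3 and 13.4 CPM in TDLNs (log2 fold change 3.49 ± 0.72, adjusted p = 0.00668). Ccr2 was 293, 310.4, 40.9 and 282 CPM against 9.08, 38.3, 12.1 and 9.69 CPM (log2 fold change 3.74 ± 0.69, adjusted p = 0.0039). TIL replicate 3 was the lowest TIL in both and still above every TDLN. Ccr1, Ccr3 and Cx3cr1 rose by 5.45, 4.09 and 3.89 on the log2 scale. Macrophages and monocytes express Ccr1, Ccr2 and Cx3cr1 as well, and the part of their RNA in these values was not tested. Their marker sum was highest in TIL replicate 3, where Ccr1, Ccr2 and Cx3cr1 were lowest, while Arg1, Spp1 and Mrc1 of the same marker list were highest in TIL replicate 1.

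Tissue residency genes were mixed. Of 17 tested from a list of 18, 7 rose and 2 fell, with a median of 0.56. Itga1 (CD49a, a collagen receptor) was 4.51, 14.4, 6.11 and 9.92 CPM in TILs and 0.648, 0.172, 0.101 and 0.231 CPM in TDLNs, and Prdm1 (Blimp-1) was 87.9, 112, 28.4 and 69.6 CPM against 5.9, 15.9, 16.2 and 6.81 CPM, rising by 4.92 and 2.73 on the log2 scale (adjusted p = 0.000692 and 0.00352). Rgs1, a brake on chemokine signaling, rose by 2.26. Neither of the 2 classical surface markers was called. Cd69 was 467, 300.4, 33.6 and 140.0 CPM against 125, 487, 337 and 156 CPM (log2 fold change -0.23 ± 0.67, adjusted p = 0.837), and Itgae (CD103) was 152, 72.98, 41.5 and 64.2 CPM against 79.4, 84.7, 33.8 and 25.7 CPM (log2 fold change 0.56 ± 0.49, adjusted p = 0.447).

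Cell cycle genes were higher in TILs, and nearly all genes induced at once by receptor signaling were not called. Of 18 immediate early genes, 1 rose, Atf3 (log2 fold change 2.28 ± 0.51, adjusted p = 0.00992), and the median was -0.14. Nr4a1, a reporter of recent receptor signaling, was 2156, 798, 885 and 342 CPM in TILs and 977, 1443, 1598 and 650.2 CPM in TDLNs (log2 fold change -0.16 ± 0.51, adjusted p = 0.853). Of 28 cell cycle genes, 19 rose and none fell, with a median of 2.10. Mki67, present in dividing cells, was 14.2, 80.5, 5.92 and 60.2 CPM against 4.54, 7.36, 2.72 and 4.96 CPM (log2 fold change 3.04 ± 0.72, adjusted p = 0.0135), and TIL replicate 3 overlapped the TDLNs. Ccnb1, the mitotic cyclin, was 31.7, 48.9, 64.8 and 77.8 CPM against 9.73, 12.99, 6.59 and 5.48 CPM (log2 fold change 2.68 ± 0.39, adjusted p = 0.00114). Birc5 and Aurkb rose by 2.82 and 2.75. The replication genes Mcm2, Mcm3, Mcm5, Mcm6 and Pcna were not called, at log2 fold changes of 0.23, 0.62, 0.79, 0.74 and -0.56. Melanoma cells also divide, and the share of any cell cycle transcript that came from them was not tested.

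Glycolysis genes rose in part. Of 21 glycolysis and hypoxia genes, 11 rose and 1 fell (median 1.38). Tpi1, a glycolytic enzyme, was 459, 695, 2411 and 1117 CPM in TILs and 117, 69.4, 52.5 and 34.6 CPM in TDLNs (log2 fold change 4.10 ± 0.59, adjusted p = 0.00111). Hk2, the inducible hexokinase, was 38.6, 21.5, 37.3 and 27.1 CPM against 4.21, 3.62, 2.37 and 1.67 CPM (log2 fold change 3.39 ± 0.39, adjusted p = 0.000422), and Bnip3, a target of hypoxia, was 62.6, 108, 90.2 and 153 CPM against 14.1, 13.2, 13.04 and 16.4 CPM (log2 fold change 2.87 ± 0.33, adjusted p = 0.000422). Pdk1, a kinase that inhibits pyruvate dehydrogenase, was the member that fell, at 106, 109, 50.2 and 105 CPM against 496, 564, 635 and 347 CPM (log2 fold change -2.46 ± 0.35, adjusted p = 0.00097). Gapdh and Pfkl rose by 1.68 and 1.35 with all TILs and by 1.16 and 0.99 without replicate 3, where Pfkl was no longer called. TIL replicate 3 was the highest TIL for Tpi1, Aldoa, Gapdh, Gpi1 and Pfkl, beside its high share of counts on short genes. Its melanoma and macrophage sums, 2490 and 1122 CPM, were also the highest of the TILs. The part of melanoma and macrophage RNA in the glycolysis and hypoxia genes was not tested. None of 20 oxidative phosphorylation genes was called (median 0.35, and 0.09 without TIL replicate 3).

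Interferon-stimulated genes rose in 9 of 20 cases and fell in none, with a median of 1.19. Ifit3, an antiviral effector, was 105, 86.8, 22.8 and 56.6 CPM in TILs and 10.6, 8.34, 6.39 and 2.08 CPM in TDLNs (log2 fold change 3.31 ± 0.57, adjusted p = 0.00274). Mx1 was 27.8, 21.9, 10.9 and 18.2 CPM against 3.05, 3.79, 5.54 and 4.096 CPM (log2 fold change 2.25 ± 0.38, adjusted p = 0.00231), and Isg15 rose by 1.78. Both Mx1 and Ifit3 were separated between tissues, with TIL replicate 3 the lowest TIL. Irf1 (log2 fold change -0.33 ± 0.33, adjusted p = 0.521) and Irf7 (log2 fold change 0.86 ± 0.31, adjusted p = 0.0757) were not called. Heat shock genes leaned lower: of 13, 3 fell and 1 rose (median -0.94). Hspa8 was 3155, 1534, 1105 and 2279 CPM against 8040.0, 4866, 5249.7 and 7083 CPM (log2 fold change -1.64 ± 0.39, adjusted p = 0.0126) and Dnajb1 383, 180.1, 293 and 259 CPM against 1797, 584, 1004 and 817 CPM (log2 fold change -1.91 ± 0.40, adjusted p = 0.0071). Hspb1, the small heat shock protein, was the member that rose, at 6.58, 6.01, 26.4 and 14.5 CPM against 3.696, 0.517, 0.252 and 1.15 CPM.

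Of 22 cytokine receptor and JAK-STAT genes, 6 rose and 1 fell (median 0.44). Il2rb, the shared IL-2 and IL-15 receptor chain, was 1566, 1221, 1947 and 757 CPM in TILs and 551, 308, 131 and 156 CPM in TDLNs (log2 fold change 2.26 ± 0.50, adjusted p = 0.00917). Socs2 and Cish, feedback inhibitors induced by STAT5, rose by 3.63 and 1.91, and Il10ra by 1.94. The common chain Il2rg was 1575, 1381, 893 and 1466 CPM against 1366, 1333, 1269 and 1064 CPM and did not pass the test (log2 fold change 0.08 ± 0.29, adjusted p = 0.871). TGF-beta pathway genes fell in 6 of 15 cases and rose in 1 (median -1.0003). Tgfbr2, a receptor chain, was 505, 268, 195 and 212 CPM against 1041, 855, 865 and 1119 CPM (log2 fold change -1.72 ± 0.35, adjusted p = 0.00679), and Tgfbr3, a coreceptor, fell by 3.57. Itgb8, an integrin chain with which Tregs activate latent TGF-beta, was the member that rose, at 28.6, 35.2, 7.33 and 32.4 CPM against 5.97, 5.06, 3.07 and 7.15 CPM (log2 fold change 2.28 ± 0.49, adjusted p = 0.00798). Smad4 was called lower with all libraries (log2 fold change -1.21) and not without TIL replicate 3 (-0.95). Of 19 NF-kB genes, 4 rose and 1 fell (median 0.14). Traf1 was 722, 556, 705 and 595 CPM against 211, 202, 181 and 208 CPM (log2 fold change 1.68 ± 0.26, adjusted p = 0.00144).

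Of 21 Hippo pathway genes tested, from a list of 24, 6 rose and 1 fell, with a median of 0.36. The kinase Stk4 (Mst1) fell, at 413, 327, 109 and 246 CPM in TILs and 596, 749, 752 and 923 CPM in TDLNs (log2 fold change -1.46 ± 0.39, adjusted p = 0.0234). Stk3, Lats1, Lats2, Sav1, Mob1a and Mob1b were not called, at log2 fold changes of 0.29, -0.57, -0.82, 0.36, -0.48 and -0.50. The genes that rose were low. Wwtr1 (Taz), the paralog of Yap, was 1.34, 5.396, 14.04 and 3.19 CPM in TILs and at most 0.173 CPM in TDLNs, at least 34.7-fold higher against a floor of 3 counts per library (adjusted p = 0.00158). Ccn1 (Cyr61) and Ccn2 (Ctgf), classical targets of Yap and TEAD, were 1.16, 10.96, 26.3 and 7.58 CPM and 1.34, 1.39, 23.2 and 1.82 CPM in TILs, Ccn2 at least 40.2-fold higher than the floor. TIL replicate 3 was the highest TIL for Wwtr1, Ccn1, Ccn2 and Yap1, and also for the melanoma (2490 CPM), endothelial (189 CPM), fibroblast (83.8 CPM) and pericyte (26.4 CPM) sums. Of its endothelial sum, 75.1 CPM was Pecam1, and that sum was 171 to 219 CPM in TDLNs. The part of these cells in the Hippo targets was not tested.

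Effector transcription factors rose in 11 of 19 tested genes (list of 20) and fell in 2, with a median of 1.49. Runx2 was 87.7, 71.3, 45.6 and 73.6 CPM in TILs and 5.19, 6.21, 4.13 and 2.37 CPM in TDLNs (log2 fold change 3.96 ± 0.38, adjusted p = 0.00028), and Bhlhe40, which supports cytokine production, was 1449.7, 649, 604 and 613 CPM against 118, 138, 55.6 and 73.1 CPM (log2 fold change 3.11 ± 0.43, adjusted p = 0.000934). Id2 was 482, 769.7, 680.5 and 871 CPM against 137, 169, 123 and 104 CPM (log2 fold change 2.39 ± 0.31, adjusted p = 0.000594), and Zeb2, a factor of terminal effectors, rose by 3.56. Batf, needed by tissue Tregs and effector cells, was 195, 180.0, 239 and 230.1 CPM against 90.8, 91.5, 58.1 and 60.2 CPM (log2 fold change 1.49 ± 0.28, adjusted p = 0.00438). Those that fell were Bach2, which keeps T cells in a resting state, at 26.2, 26.6, 12.3 and 13.7 CPM against 123, 106, 144 and 179.7 CPM (log2 fold change -2.81 ± 0.36, adjusted p = 0.000607), and Myb (log2 fold change -2.70 ± 0.65, adjusted p = 0.0143). Irf4 and Nfatc1 were not called (-0.63 and -0.53 on the log2 scale).

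The 12 largest rises among called protein-coding genes with at least 50 CPM in the higher tissue and no overlap (339 genes) were of mixed origin. Tyrp1, Slc45a2 and Mlana are pigment cell genes, and Tyrp1 was 39.1, 357, 258 and 297 CPM in TILs and at 0 in all TDLNs, at least 1376-fold higher against the floor. Slc45a2 was at least 399.6-fold higher (9.26, 57.4, 152 and 57.7 CPM). Ptgds, Igfbp3, Serpinh1, Sparc and Cd63 were highest in TIL replicate 3, as the melanoma sum was. Il5 and Ccl5 were the T cell cytokine genes among them. Lilr4b and Lilrb4a, inhibitory receptors of myeloid cells and of some activated T cells, rose as well. Lilr4b was 211, 138, 14.96 and 90.1 CPM in TILs and 0.389, 0.9198, 0.201 and 0.7499 CPM in TDLNs (log2 fold change 7.64 ± 0.86, adjusted p = 0.000405), and Lilrb4a was 176, 119.9, 12.9 and 63.5 CPM against 0.1297, 1.67, 0.0503 and 0.519 CPM (log2 fold change 7.28 ± 1.06, adjusted p = 0.00114). Both were lowest among the TILs in replicate 3, where the macrophage sum was highest at 1122 CPM, and highest in replicate 1, where it was 293 CPM. Arg1 of the macrophage list was also highest in TIL replicate 1, at 47.8, 3.89, 23.9 and 8.44 CPM in TILs, and the part of myeloid RNA in both genes was not tested. These 2 genes are near-identical neighbours, so the split of reads between them is uncertain.

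The 12 largest falls (of 411 eligible genes) were Amigo2, Atp1b1, Sox4, Tgfbr3, Gm14085, Pdlim4, Igfbp4, Als2cl, Ccr7, Actn1, Abca1 and Tdrp, from -3.76 to -3.36 on the log2 scale. Sox4, a transcription factor of immature lymphocytes, was 5.61, 8.68, 8.303 and 5.82 CPM in TILs and 61.8, 68.6, 114 and 134 CPM in TDLNs (log2 fold change -3.73 ± 0.37, adjusted p = 0.00028). Tdrp was 21.8, 21.9, 16.7 and 21.9 CPM against 224, 158, 195 and 266 CPM (log2 fold change -3.36 ± 0.30, adjusted p = 0.00028), and Abca1, a cholesterol exporter, 4.33, 5.95, 5.49 and 4.45 CPM against 37.3, 60.02, 42.8 and 71.2 CPM (log2 fold change -3.38 ± 0.32, adjusted p = 0.00028). In all 3 the highest TIL lay far below the lowest TDLN.

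The tissue difference of the Yap-cKO CD4 cells was next compared with that of the WT CD4 cells, as an interaction over 16 libraries. The difference is signed, as the log2 fold change from TDLN to TIL. A larger one can be a weaker fall, and a smaller one a deeper fall. Of 15087 genes, 31 had a larger and 174 a smaller signed difference in Yap-cKO than in WT (1.36% in all, 0.205% and 1.15% by direction), and 2239 had an unadjusted p under 0.05. Without TIL replicate 3 the counts were 178 and 710. They were 84 and 342 without WT TIL replicate 3, and 47 and 150 without Yap-cKO TDLN replicate 1. Every other leave-out of 1 library gave fewer of both, such as 5 and 39 without WT TIL replicate 1. Treg genes were among those that differed: 6 of 21 were larger in Yap-cKO, and 15 of 21 without TIL replicate 3. Of the 6, only Ccr8 kept its call in every leave-out of 1 library. The median interaction of the list was 2.09, beside 0.14 for all genes. The T cell receptor and coreceptor list, with none of 17 called, had a median of 1.08. Ccr8 was 352 ± 89.3 CPM in Yap-cKO TILs and 39.7 ± 8.48 in Yap-cKO TDLNs, but 107 ± 57.8 in WT TILs and 94.3 ± 36.6 in WT TDLNs (SD, n = 4 each, on the scale of this fit). The log2 difference between tissues was 3.15 in Yap-cKO and 0.18 in WT, an interaction of 2.97 ± 0.51 (SE, adjusted p = 0.0129). Tigit was 114 ± 15.4 and 16.02 ± 6.63 CPM in Yap-cKO TILs and TDLNs and 29.7 ± 13.4 and 22.7 ± 8.84 CPM in WT (2.45 ± 0.52, adjusted p = 0.0309). Klrg1 was 384 ± 96.4 and 9.24 ± 5.98 CPM against 86.2 ± 45.7 and 14.2 ± 6.82 CPM (2.78 ± 0.66, adjusted p = 0.0482). In these genes the Yap-cKO TILs lay above the WT TILs without overlap. Il10, Ikzf4, Tnfrsf18, Tnfrsf4, Tnfrsf9, Itgae, Havcr2 and Vdr also had a positive interaction, of 2.05 to 3.39 on the log2 scale (adjusted p from 0.0327 to 0.0495). That of Itgae came with a fall in WT TILs, at a log2 difference between tissues of -1.98 in WT and 0.64 in Yap-cKO. Foxp3 itself was 545 ± 68.9 and 98.5 ± 54.0 CPM in Yap-cKO and 185 ± 77.1 and 155 ± 39.0 CPM in WT, just short of the threshold with all libraries (2.21 ± 0.54, adjusted p = 0.0509) and called without TIL replicate 3 (2.29, adjusted p = 0.0223). Gata3 was not called with all libraries either, at 267 ± 107 and 73.7 ± 15.4 CPM against 73.2 ± 35.5 and 77.2 ± 24.5 CPM (1.93 ± 0.53, adjusted p = 0.0779, and 2.16 with adjusted p = 0.0152 without TIL replicate 3).

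Markers of other cells moved with this comparison. The WT TILs summed to 6983 to 20884 CPM of melanoma genes where the Yap-cKO TILs held 207 to 2490 CPM, and Cd4 was 353 ± 173 CPM in WT TILs and 799 ± 108 CPM in Yap-cKO TILs. Scaling each library on T cell receptor genes moved the median interaction of all genes from 0.14 to -1.25 and left 6 genes larger and 1837 smaller in Yap-cKO. Under that scaling Tigit, Klrg1, Il10, Ikzf4, Tnfrsf18, Tnfrsf4, Tnfrsf9, Itgae, Havcr2, Vdr and Arrdc4 were no longer called. Nrn1, Slc15a3, Slc52a3 and Bspry were lost as well. Ccr8 was still called, and the interaction of Exosc6 was too. No called interaction named here changed sign. The genes with a smaller difference in Yap-cKO included stromal and tumor genes. Mmp14, a matrix protease, was 7.84 ± 2.90 CPM in Yap-cKO TILs and 71.9 ± 17.1 CPM in WT TILs (-3.52 ± 0.51, adjusted p = 0.00788). App was 14.4 ± 3.202 against 97.9 ± 34.4 CPM (-3.13 ± 0.40, adjusted p = 0.00569), Vegfa 17.03 ± 6.03 against 77.5 ± 23.2 CPM (-2.40 ± 0.42, adjusted p = 0.0140) and Yap1 3.56 ± 2.07 against 21.6 ± 4.97 CPM (-2.81 ± 0.55, adjusted p = 0.0237). Of 14 melanoma genes, 4 had a smaller difference in Yap-cKO and none a larger one, and the part of melanoma RNA in the other values was not tested. The sum of 4 Y-linked genes was 47.8 to 153 CPM in WT replicates 1 to 3 of both tissues, 5.07 to 8.48 CPM in WT replicate 4 and 2.88 to 10.5 CPM in the Yap-cKO CD4 libraries, so a difference between mice of this kind cannot be told apart from genotype in 3 of the 4 replicates, and replicate 4 alone is too few for a test.

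**Figure D4:**
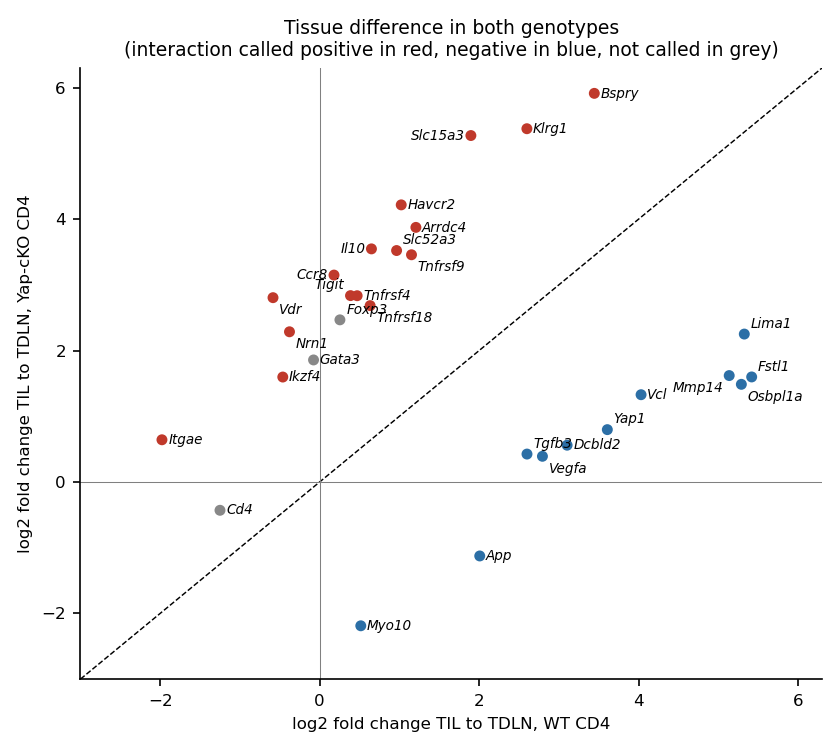
Log2 fold change from TDLN to TIL in WT CD4 cells (horizontal) and in Yap-cKO CD4 cells (vertical) for the named genes of the genotype comparison, 1 point per gene, in red where the interaction was called positive, in blue where negative and in grey where not called, with the dashed line where both are equal. Ccr8 lies at 0.18 and 3.15, and Exosc6, whose WT TILs were all at 0, is left out.

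Against the CD8 T cells of Yap-cKO mice, few genes differed in their tissue contrast. Of 14802 genes, 14 had a larger and 15 a smaller signed TIL to TDLN difference in CD4 than in CD8 cells (0.196% in all, 0.0946% and 0.101% by direction), with 878 at an unadjusted p under 0.05, and 27 and 28 were called without TIL replicate 3. Several of these genes were already high in CD8 cells of the node. Nkg7 was 631 ± 368 CPM in CD4 TILs and 15.6 ± 14.1 CPM in CD4 TDLNs, and 1878.5 ± 477 and 829.6 ± 248 CPM in CD8 cells (SD, n = 4 each), an interaction of 4.16 ± 0.71 (SE, adjusted p = 0.0147). Plac8 was 112 ± 28.4 and 3.12 ± 2.07 CPM in CD4 cells and 129 ± 26.5 and 77.7 ± 22.3 CPM in CD8 cells (4.44 ± 0.57, adjusted p = 0.00728). Itgae was lower in CD8 TILs than in their node and overlapped between tissues in CD4 cells, at 82.04 ± 48.2 and 56.2 ± 30.9 CPM in CD4 and 38.5 ± 22.7 and 316 ± 118 CPM in CD8 cells (3.58 ± 0.69, adjusted p = 0.0364). Fasl, the death ligand, was 84.5 ± 34.4 and 67.0 ± 21.7 CPM in CD4 cells and 177 ± 33.4 and 18.2 ± 7.41 CPM in CD8 cells (-2.95 ± 0.50, adjusted p = 0.0130). Ly6c1 was 19.1 ± 9.78 and 155 ± 75.8 CPM in CD4 cells and under 2 CPM in every CD8 library (-3.51 ± 0.63, adjusted p = 0.0203), and this call was lost with the replicate number as a block (adjusted p = 0.0572). Actn1 was lower in the TILs of both cell types and by more in CD4 (-1.99 ± 0.39, adjusted p = 0.0430). F13a1, Lgmn and Cd163, which macrophages express, had a larger TIL to TDLN difference in CD8 cells, Cd163 at 10.7 ± 9.42 CPM in CD8 and 0.199 ± 0.218 CPM in CD4 TILs. The interaction of Foxp3 was 0.31 ± 1.01 (adjusted p = 0.941), from 8.29 ± 7.94 and 2.01 ± 1.27 CPM in CD8 cells, and that of Gata3 1.18 ± 0.44 (adjusted p = 0.551). Both interactions share the 8 Yap-cKO CD4 libraries.

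Variable segments of the T cell receptor beta chain were counted from 6429 to 10526 counts in TILs and 10451 to 16354 in TDLNs. The most frequent segment held 11.7%, 16.3%, 16.4% and 12.6% of Trbv counts in TILs and 10.8%, 10.5%, 11.01% and 10.8% in TDLNs, 14.2% ± 2.45 against 10.8% ± 0.212 (SD, n = 4). The p of 0.0286 in a two-sided exact permutation test is the lowest that 4 against 4 libraries can give. Evenness over segments was 0.899 ± 0.0281 in TILs and 0.908 ± 0.00741 in TDLNs and did not differ beyond the spread (exact permutation test, p = 0.543). Trbv31 held 3.67, 5.64, 4.19 and 3.79% in TILs and 10.01, 9.19, 11.01 and 9.205% in TDLNs, every TIL below every TDLN. Trbv13-2 held 11.7, 16.3, 12.7 and 12.6% in TILs and 9.58, 9.63, 9.34 and 10.8% in TDLNs, every TIL above. Trbv13-3 held 3.35% ± 0.562 in TILs and 5.62% ± 0.462 in TDLNs (SD, n = 4). For these 3 segments the exact permutation p was 0.0286 and 0.0952 after adjustment over the 10 segments examined, which were chosen after the values were seen.

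The transcripts of Ptprc, which encodes CD45, were compared as shares of its counts. The 30-exon transcript Ptprc-203 held 55.8%, 51.9%, 46.9% and 51.7% of Ptprc counts in TILs and 72.4%, 74.1%, 74.5% and 77.0% in TDLNs. The 29-exon transcript Ptprc-204 held 32.8%, 31.0%, 26.8% and 30.6% in TILs and 11.2%, 9.33%, 4.72% and 4.52% in TDLNs. The groups did not overlap for either transcript (51.6% ± 3.66 against 74.5% ± 1.88 and 30.3% ± 2.55 against 7.45% ± 3.36, SD, n = 4), and each had an exact permutation p of 0.0286, which became 0.0714 after adjustment over 5 transcripts and did not pass. Alternative exons of CD45 are known to be removed as T cells pass from naive to antigen-experienced. The transcripts Tcf7-201 and Tcf7-202 shifted by 3.06 percentage points (adjusted p = 0.107, exact permutation test), and Ctla4-201 held 99.7% in TILs and 99.8% in TDLNs.

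**Figure D5:**
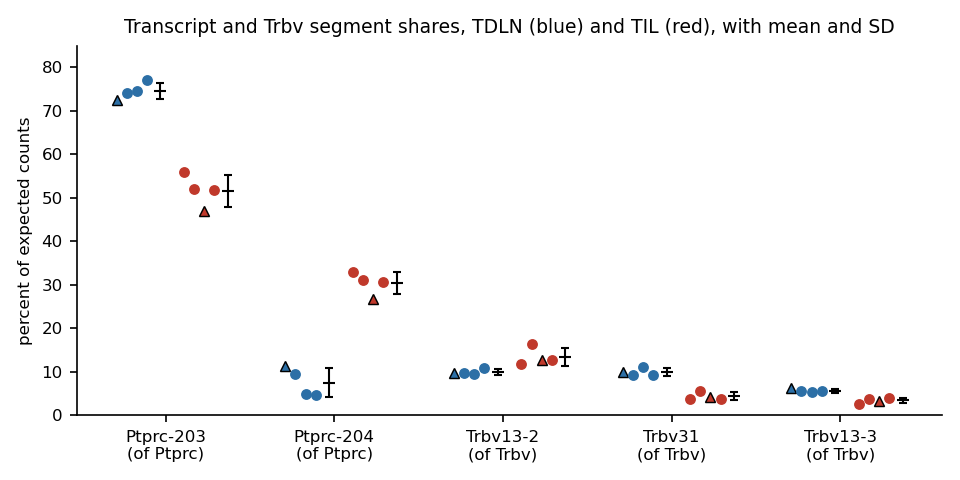
Share in percent of Ptprc counts on transcripts Ptprc-203 and Ptprc-204 and of Trbv counts on segments Trbv13-2, Trbv31 and Trbv13-3, 1 point per library, in blue for Yap-cKO CD4 TDLNs and red for Yap-cKO CD4 TILs, triangles for TDLN replicate 1 and TIL replicate 3, and bars for the mean and SD of 4. Ptprc-204 was 26.8% to 32.8% in TILs and 4.52% to 11.2% in TDLNs.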

How the data were processed

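RNA was measured in 48 libraries of CD4 T cells, CD8 T cells and other CD45+ cells, of which 24, all of CD4 or CD8 T cells, were used here. The authors deposited, for each library, Salmon (version 0.9.1) estimates per transcript on mm10, with FastQC and Trimmomatic also named in the submitters' processing notes: estimated counts, which are not normalized, and TPM (abundances per transcript), which the authors' tool scales by transcript length and library total. Of 112092 transcripts, 111787 matched GENCODE M21 and were summed to 34932 genes, and 0.0671% to 0.180% of counts did not match. Sums of estimated counts were rounded to whole numbers. Reads of near-identical genes, transcripts of one gene and overlapping genes are split with uncertainty.

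Genes with 10 counts in at least 4 libraries were kept. After TMM scaling, edgeR's quasi-likelihood test (edgeR 4.0.16, R 4.3.3) was run with Benjamini-Hochberg adjustment. Each comparison was fitted on its own groups only: 8 libraries for TIL against TDLN, 16 for each interaction. Calls needed an adjusted p below 0.05 together with a log2 fold change beyond 1 in either direction. Without TMM scaling, 3 counts per library equal 0.156 to 0.192 CPM. Genes with at most 3 counts in every library of 1 tissue are given as bounds, which cover counting error only. The bounds use 3 counts on the TMM-scaled CPM as the floor. Marker sums and shares were compared by two-sided exact permutation tests (scipy 1.17.1). The test was checked on simulated counts. Same-numbered Yap-cKO CD4 and CD8 libraries deviated together, with correlations of 0.638, 0.159, 0.613 and 0.480 in TILs and 0.691, 0.471, 0.369 and -0.0810 in TDLNs. Per the study's methods both cell types were sorted from every tumor, so the numbers may pair CD4 with CD8 TILs. The main fit of the cell type interaction held no term for such pairs, and its p-values do not use them. The replicate block also ties TILs to TDLNs of the same number, which are not known pairs. Alternatives were DESeq2 1.42.0, its size factors, no count filter, length offsets, a replicate block, scaling on T cell receptor genes, a test against a log2 fold change of 1 and leaving out each library. Leaving out TIL replicate 3 and TDLN replicate 1 together, list counts without TIL replicate 3, and the Yap1 and Trbv shares were chosen after seeing the data.

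The members and gene lists were chosen with earlier results of these data known. The named genes were Cd4, Foxp3, Gata3, Yap1 and the first 3 of each T cell list, up to 5 called genes of smallest p per list, the 12 largest changes in each direction among called protein-coding genes with a mean of 50 CPM in the higher tissue and no overlap, and 8 called protein-coding genes in each direction of each interaction. Further list members were named after their values were seen. Some genes of the lists are counted but not reported here by name.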

Additional observations from a re-analysis of the deposited data

Results flagged for a closer look

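Single libraries stood away from the other 3 of their group in 19 of 334 groups of 4 tested, where about 5% would be so by chance. The value given is the gap to the nearest other library divided by the range of the group, listed where it passed Dixon's 95% critical value. Single genes were taken on the log2(CPM + 0.5) scale. Marker sums were taken as plain CPM and Trbv segments as plain percent. TIL replicate 3 accounted for 12 of the 19. It was the lowest TIL for Klrg1 (0.846), Maf (0.95), Il21 (0.957), Pdk1 (0.952), Ndufs1 (0.862), Itgb8 (0.866), Zeb2 (0.839) and Tdrp (0.977). It was the highest for Tbx21 (0.873), Ccn2 (0.909) and Igfbp3 (0.946), and for the macrophage and monocyte marker sum (0.906). TIL replicate 1 was highest for Bhlhe40 (0.919) and lowest for Tyrp1 (0.853), and TIL replicate 2 lowest for Gzmc (0.886). Among TDLNs, replicate 1 was highest for Actn1 (0.83), replicate 2 for Pparg (0.883) and Il17a (0.919), and replicate 3 for the CD8 marker sum (0.937).

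The TIL to TDLN difference was tested for a difference between Yap-cKO and WT CD4 cells, and the log2 size of that interaction is given for each named gene called. The interaction was positive for Arrdc4 (2.67), Ccr8 (2.97), Nrn1 (2.66), Slc15a3 (3.38), Slc52a3 (2.56), Bspry (2.47), Tigit (2.45), Ikzf4 (2.06), Itgae (2.62), Il10 (2.90), Havcr2 (3.19), Vdr (3.39), Tnfrsf9 (2.31), Tnfrsf4 (2.37), Klrg1 (2.78) and Tnfrsf18 (2.05). Of these genes, only Ccr8 was still called under scaling on T cell receptor genes. Exosc6 had a fitted value of 10.81 with all WT TILs at 0, so the value is no bound. The interaction was negative for App (-3.13), Lima1 (-3.08), Myo10 (-2.70), Mmp14 (-3.52), Fstl1 (-3.82), Osbpl1a (-3.80), Vcl (-2.70), Dcbld2 (-2.54), Yap1 (-2.81), Tgfb3 (-2.17) and Vegfa (-2.40). For App and Myo10 it came with a fall in Yap-cKO TILs, at -1.13 and -2.19 against 2.01 and 0.52 in WT. The melanoma marker sum was 6983 to 20884 CPM in WT TILs and 207 to 2490 CPM in Yap-cKO TILs, and its part in these values was not tested.

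Against CD8 T cells of Yap-cKO mice, the interaction was positive for Plac8 (4.44), Sytl3 (3.28), Arrdc4 (3.25), Matk (2.88), Smarcd3 (3.89), Ggt1 (3.07), Podnl1 (3.17), Nkg7 (4.16) and Itgae (3.58). For Matk, Ggt1 and Itgae it came with a fall in CD8 TILs, at -1.53, -2.75 and -3.04. The interaction was negative for F13a1 (-4.72), Pid1 (-3.70), Lgmn (-4.04), Cd163 (-7.82), Cers6 (-3.35), 1700025G04Rik (-2.38), Pdlim4 (-3.85), Fasl (-2.95), Actn1 (-1.99) and Ly6c1 (-3.51). Cers6, Pdlim4, Ly6c1 and Actn1 fell in CD4 TILs, at -2.91, -3.50, -3.02 and -3.41. In CD8 cells their values were 0.44, 0.34, 0.49 and -1.42.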

How the results depend on the processing

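When 1 library was left out, the number of genes called between tissues ran from 1580 (without TDLN replicate 3) to 2778 (without TIL replicate 3), that of the genotype interaction from 44 (without WT TIL replicate 1) to 888 (without TIL replicate 3), and that of the cell type interaction from 19 (without CD8 TDLN replicate 4) to 55 (without TIL replicate 3). Between tissues, 2507 genes were called and 2295 of them were called the same way without TIL replicate 3. All 205 and 29 interaction genes were also called without it. The test against a log2 fold change of 1 called 1055 genes between tissues (856 higher, 199 lower). DESeq2 called 3082, no count filter 3059, length offsets 2338 and T cell receptor scaling 2720. For the genotype interaction (205 genes), DESeq2 called 842 (171 larger, 671 smaller in Yap-cKO), no count filter 386 (57 and 329) and T cell receptor scaling 1843 (6 and 1837). For the cell type interaction (29 genes), DESeq2 called 148 (88 and 60) and no count filter 59 (36 and 23). The causes of these moves were not tested.

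With the replicate number as a block, 1726 genes were called between tissues (1213 higher, 513 lower), 1703 of them also without the block, 132 for the genotype interaction (28 and 104) and 31 for the cell type interaction. Same-numbered TILs and TDLNs had correlations of deviations of -0.356, 0.221, -0.227 and 0.341, so between tissues the replicate block does not stand for known pairs, and not every library correlated best with its own number. Among 149 named genes, 115 kept their call (higher, lower or not called) under every alternative. So did 9 of 31 in the genotype and 18 of 24 in the cell type interaction. A gene that was not called could change sign and still count as kept. Under the replicate block, calls of Il4, Gzmc, Rora, Nfkb2 and Smad4 were lost between tissues, and the genotype interaction calls of Slc15a3, Exosc6, Ikzf4, Havcr2, Tgfb3, Vdr, Tnfrsf4 and Tnfrsf18 were lost at adjusted p up to 0.134. In the cell type interaction the block ended 1 call named here, that of Ly6c1. List members named beyond the fixed rule are not among the 149. Of them, Ets1 and Pfkl lost their calls between tissues without TIL replicate 3, and Klf2 and Btla gained theirs. Among the 149 genes between tissues, leaving out 1 library lost the calls of Amotl1, Gzmc, Hsp90ab1, Hspb1, Il2ra, Il4, Isg15, Nfkb2, Rora, Smad4, Smurf2, Tnfsf14 and Xaf1 in at least 1 case, and gained Ctla4, Irf7, Pfkp and Tgfbr1. In the genotype interaction it lost Tigit, Klrg1, Il10, Ikzf4, Itgae, Havcr2, Vdr, Tnfrsf4, Tnfrsf9, Tnfrsf18, Slc15a3, Slc52a3, Bspry, Exosc6, Tgfb3 and Yap1. There it gained Foxp3 and Gata3. In the cell type interaction it lost Actn1, Itgae and Ly6c1. With 3 against 4 libraries the exact permutation tests cannot go below 0.0571, so the marker sums and shares have no test without a library.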
